A study of Homo sapiens with 36 samples.

Results

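The genes described here are 9 complement components and regulators: C1R, C1S, C3, C5, CFB, CFI, CD46, CD55 and CD59. Each was found by its Ensembl identifier as 1 row of the count tables, so that they make up 9 of the 63677 genes listed, and all 9 had enough reads to be among the 19180 genes tested. The cells were A549, an established line of human lung adenocarcinoma cells, in which the study asked how far changes made by a chronic inflammatory cytokine last once it is gone. The exposed arm received interleukin-1β (IL-1β) at 1 ng/ml and was harvested at day 6, 15 or 21 of exposure, or at day 6, 15 or 30 after IL-1β had been taken away at day 21. The control arm was grown without IL-1β in the same serum-containing medium and harvested at the same 6 times. With replicates A, B and C in each of the 12 groups there were 36 libraries. The labels call the replicates biological but do not tie them to separate starting cultures, so p-values measure the spread between these samples, which may be technical. All of them come from 1 cell line, and transcripts, not proteins, were measured.

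Complement is a cascade of plasma proteins that tags cells and microbes for removal and can perforate their membranes. C1r and C1s are the proteases that start the classical pathway, factor B (CFB) supplies the protease of the alternative pathway, and both pathways converge on cleavage of C3 and then of C5, which opens the assembly of the membrane attack complex. Factor I (CFI) is a soluble protease that inactivates C3b, with CD46 on the cell surface as a cofactor, while CD55 takes convertases apart and CD59 blocks the last assembly step. The liver makes most of the circulating proteins, airway epithelium also makes some of them, and C3 and factor B are acute-phase proteins.

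Promoter sequences are shown for the 4 genes whose transcripts passed a test below and which have an entry in the RefSeq promoter table (GRCh38.p14), in which 7 of the 9 genes, all but C3 and C1S, were matched with 13 annotated start sites. Each sequence is the 250 bases before a start site, from 5′ to 3′ on the strand of the gene, with base -1 next to the start. Capitals mark a match to 1 of 6 motifs searched on both strands: NF-kB, AP-1 (TGANTCA), C/EBP (TTGCNNAA), GAS (TTCNNNGAA), HNF1 (GTTAATNA) and HNF4 (CAAAGNNCA). The windows are chr6:31945845-31946094 on the plus strand for CFB, chr9:121074866-121075115 and chr9:121050276-121050525 on the minus strand for the first and second starts of C5, chr4:109802000-109802249 on the minus strand for CFI, and chr11:33736480-33736729 on the minus strand for the first of 4 CD59 starts.
CFB: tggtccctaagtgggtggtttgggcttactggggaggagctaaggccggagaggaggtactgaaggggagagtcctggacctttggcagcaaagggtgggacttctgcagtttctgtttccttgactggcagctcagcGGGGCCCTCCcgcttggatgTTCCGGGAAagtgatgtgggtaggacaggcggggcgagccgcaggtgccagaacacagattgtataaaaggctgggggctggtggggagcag
C5 start 1: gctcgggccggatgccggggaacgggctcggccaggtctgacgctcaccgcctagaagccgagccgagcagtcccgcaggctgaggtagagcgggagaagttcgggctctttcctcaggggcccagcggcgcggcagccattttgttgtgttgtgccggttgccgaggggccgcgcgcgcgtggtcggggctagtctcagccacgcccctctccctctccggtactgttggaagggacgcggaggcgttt
C5 start 2: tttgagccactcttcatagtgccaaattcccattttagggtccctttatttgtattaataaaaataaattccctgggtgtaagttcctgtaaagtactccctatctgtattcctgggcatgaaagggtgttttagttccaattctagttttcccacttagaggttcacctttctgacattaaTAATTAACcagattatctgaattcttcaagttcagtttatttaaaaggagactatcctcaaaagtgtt
CFI: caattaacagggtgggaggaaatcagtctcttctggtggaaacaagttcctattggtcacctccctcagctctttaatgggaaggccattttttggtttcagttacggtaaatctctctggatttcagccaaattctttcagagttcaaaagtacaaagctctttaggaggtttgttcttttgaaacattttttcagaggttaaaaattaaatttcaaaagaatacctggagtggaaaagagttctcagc
CD59 start 1: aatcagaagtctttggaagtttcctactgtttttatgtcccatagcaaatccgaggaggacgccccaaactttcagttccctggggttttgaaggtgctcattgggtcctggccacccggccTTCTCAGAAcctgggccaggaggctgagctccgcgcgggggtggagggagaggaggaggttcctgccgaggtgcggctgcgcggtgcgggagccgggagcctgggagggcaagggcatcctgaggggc
The CFB window held an NF-kB match from base -112 to -103 on the strand of the gene and, apart from it, a GAS match from base -92 to -84. NF-kB matches were found in 9.96% and GAS matches in 6.57% of the 35116 promoters of this table. The second C5 start had an HNF1 match, which 2.19% of promoters hold, from base -68 to -61 on the opposite strand, and the first start of CD59 had a GAS match from base -128 to -120. Of the starts not shown, the second of CD59 has a window that overlaps that of the first and holds this same GAS site (-184 to -176). The third start of CD59 had 2 C/EBP matches (-191 to -184 and -53 to -46) and the fourth 2 AP-1 matches (-117 to -111 and -23 to -17). The first start of C1R had a C/EBP match (-106 to -99) and the second a C/EBP match (-167 to -160) and a GAS match (-86 to -78). No match to these 6 motifs was found in the CFI window, at the first C5 start or at any start of CD46 or CD55. AP-1, C/EBP and HNF4 matches occur in 6.57%, 9.05% and 4.44% of promoters. The GAS and AP-1 motifs read the same on both strands, so that 1 match is found on each. Which of the starts these cells use was not tested.

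Between 9116032 and 23570026 reads per library fell on genes. In 11 libraries, 6 of them controls and 8 of them from replicate B, 11.8% to 24.6% of these reads came from mitochondrial genes, against 5.61% to 7.75% in the other 25. Some results that rest on these libraries are therefore also given without them. At day 6 and day 15 after withdrawal only 1 control library is outside this set, so no p-value is given for that fit there. As to cell type, the epithelial markers KRT8, KRT18 and CDH1 were well expressed, while EPCAM stayed at or below 1.63 CPM (counts scaled to library size) and KRT19 at or below 0.19 CPM in every library. The summed level of the 5 epithelial markers was 2901 to 7624 CPM in controls and 899 to 5142 CPM in exposed cells. Leukocyte and macrophage markers summed to at most 30.5 CPM (1 of 5 at 3 or fewer counts in every library), the 4 matched markers of fibroblasts and endothelium to at most 3.87 CPM, and hepatocyte markers, of which 3 of 5 including ALB had 3 or fewer counts in every library, to at most 4.45 CPM. The hepatocyte sum was 0.0649 to 0.696 CPM in controls and 0.321 to 4.45 CPM in exposed cells, most of it from SERPINA1, an acute-phase protease inhibitor. The part of these markers in the results below was not tested, and in bulk RNA fewer expressing cells and less RNA per cell cannot be told apart.

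In untreated A549 cells the complement gene with the highest level, relative to length, was C3, and CFB had the lowest as counted. The CFB level and its place in the order may be understated. A read-through gene on the same strand shares 95.5% of its coding bases, and how shared reads were counted is not known. As CPM per kb of the longest coding transcript, the control medians over 18 libraries were 85.3 for C3, 58.8 for CD46, 22.2 for CD55, 15.6 for CD59, 10.5 for C5, 10.2 for C1S, 0.681 for CFI and 0.105 for CFB, a span of 811 times, and C1R stood at a level 4.65 times below C1S. The ranges of most neighbours overlapped, but within libraries the order held in 18 of 18 controls for C3 over CD46, CD46 over CD55, CD55 over CD59, C1S over C1R, C1R over CFI and CFI over CFB, and in 16 of 18 for CD59 over C5. C5 and C1S did not differ beyond their spread, with C5 the higher in 7 of 18 controls. During exposure C3 stood further above the rest, at a median of 229 CPM per kb over 9 libraries, 5.03 times the next gene, CD46. C5 dropped below C1R in the order in all 9 libraries, at a median of 0.822 CPM per kb, and CFI, at 0.110 CPM per kb, became the lowest. After withdrawal the order went back to CFB as the lowest, and C5 and C1R changed places from library to library, with C5 the higher in 5 of 9.

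**Figure D1:**
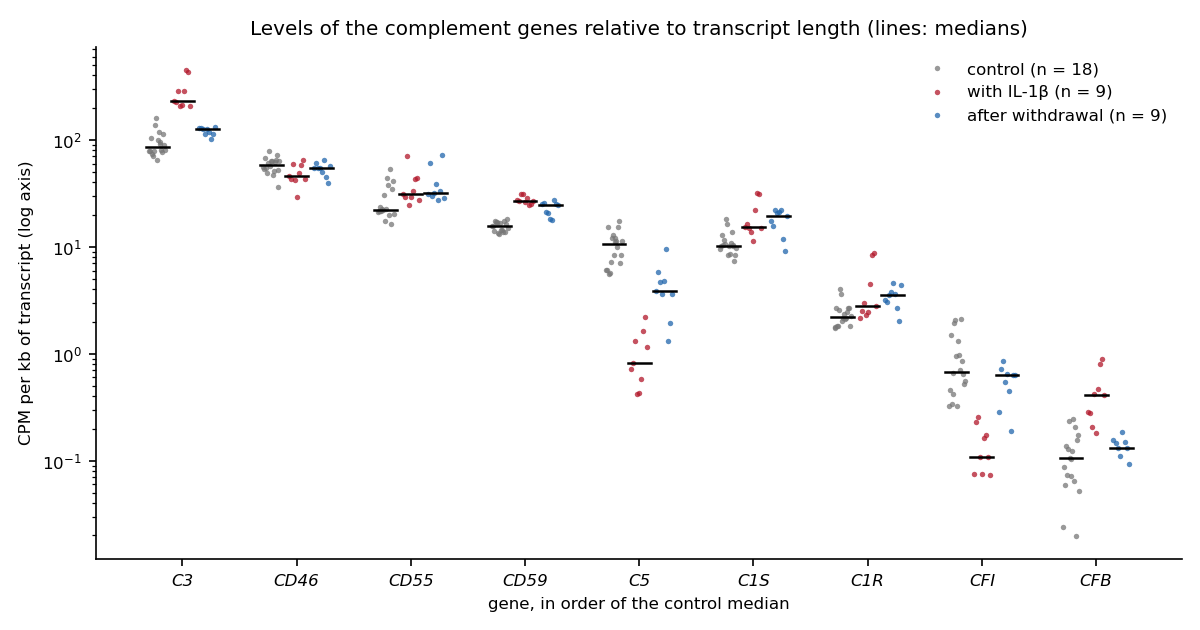
Level of each gene in CPM per kb of its longest coding transcript (log axis), with a point per library for 18 control, 9 exposed and 9 withdrawn libraries and a line at each median. By the medians of each gene on its own, C5, CFI and CD46 were lowest during exposure and C3, CFB and CD59 highest. The ranges of CD46 overlapped. The 1 withdrawn library without a CFB read is not drawn.

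With IL-1β present, C3 and CFB transcripts rose and C5 and CFI transcripts fell, while CD59 rose by less than 2 times. A gene was called where the Benjamini-Hochberg adjusted p of edgeR's quasi-likelihood test was under 0.05 over all genes tested and the fold change was over 2. By this rule 4 of the 9 genes were called at day 6 and the same 4 at day 15 (C3 and CFB higher, C5 and CFI lower), and 2 at day 21 (C3 higher, C5 lower). Of all genes tested, 2.77%, 4.24% and 4.26% were called at these times. After withdrawal C5 was the 1 gene called at day 6, where 1.8% of all genes were. There were 0 called at day 15 and 0 at day 30 after withdrawal, where the shares of all genes were 0.954% and 0.897%. At these harvests 3 and 5 of the 9 had an unadjusted p under 0.05, a count not made for all genes, so these counts have no base to be judged against. DESeq2's test called 1 at each, C5 in both cases. With the adjusted p alone, CD59 joined the called genes at the first 5 time points, giving 5, 5, 3, 2, 1 and 0 of 9 over the 6 time points in order, against 4.27%, 6.43%, 6.4%, 2.62%, 1.36% and 1.31% of all genes. The median log2 fold change of the 9 genes was 0.82, 0.53 and 0.54 with IL-1β present and 0.29, 0.21 and 0.34 once it was gone, and the median over all genes tested lay between -0.02 and 0.02. Control and exposed libraries did not overlap for 5, 7 and 6 of the 9 genes during exposure and for 2, 5 and 6 after withdrawal. The same held for 21.8%, 25.4%, 29.0%, 10.8%, 10.9% and 11.9% of all genes tested.

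**Figure D2:**
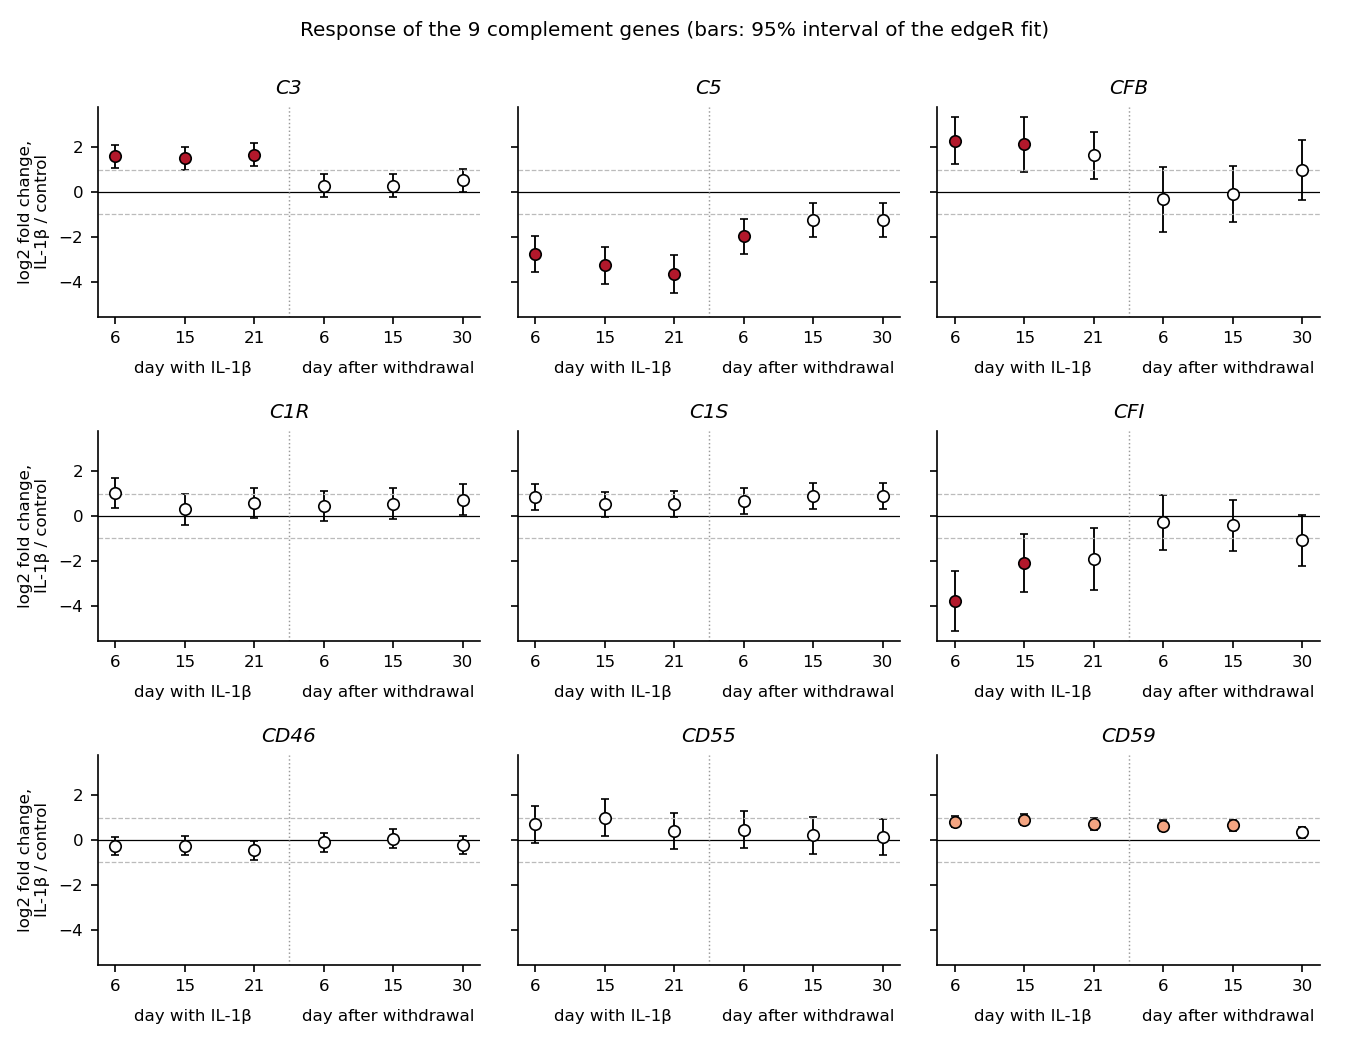
Log2 fold change of IL-1β over control for each gene at the 6 time points, as the edgeR estimate with its 95% interval. Dark points passed both thresholds, light points passed the adjusted p alone and open points neither, and dashed lines mark a 2-fold change. C5 runs from -2.75 to -3.67 during exposure and back to -1.25, and CD59 holds between 0.65 and 0.92 until day 15 after withdrawal.

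C1R and C1S, the proteases of the C1 complex, lie side by side on chromosome 12 (chr12:7187513-7245203 on the minus strand and chr12:7096351-7178336 on the plus strand, GRCh37, the build of the counts). Both were higher in exposed cells on average at every time point, and neither passed the test at any. C1S had 55.7, 50.0 and 25.9 CPM in the control replicates A, B and C at day 6 and 98.3, 94.9 and 45.6 CPM in the exposed ones. The 2 arms overlapped because both C replicates were low, and within each letter the exposed library was the higher. Its log2 fold change there was 0.86 (SE 0.28, adjusted p = 0.0880), followed by 0.53 and 0.54 at days 15 and 21. With a block for the replicate letters within each harvest the day 6 value was 0.85 (adjusted p = 0.00646). The day 6 adjusted p was 0.0427 with DESeq2's test and 0.00385 without replicate C, but 0.683 without replicate A and 0.424 without replicate B. All these values were below a 2-fold change. After withdrawal the exposed mean was still the higher at each time. At day 6 the controls had 22.8 to 30.1 CPM and the exposed cells 28.2 to 59.9 CPM, which overlapped (log2 fold change 0.66, SE 0.28, adjusted p = 0.366). At day 30 controls had 42.0, 32.2 and 31.0 CPM and previously exposed cells 64.1, 65.0 and 68.1 CPM, without overlap. The log2 fold change was 0.89 (SE 0.28, adjusted p = 0.146) at day 15 and 0.91 (SE 0.28, adjusted p = 0.132) at day 30 after withdrawal, and the 3 values after withdrawal were 76.5%, 103% and 105% of the value at day 6 of exposure, where it was largest while IL-1β was present. With the high mitochondrial share as a covariate, the adjusted p at day 30 was 0.0431, and without replicate B it was 0.93. The difference between the day 30 and the day 21 response, 0.37 (95% interval -0.44 to 1.17), did not pass the test (adjusted p = 0.955).

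C1R was expressed at a lower level and followed a like course. The controls had 8.43, 7.65 and 4.31 CPM at day 6 and the exposed cells 17.7, 18.3 and 5.94 CPM. The exposed C replicate thus lay below 2 of the controls. The log2 fold change was 1.04 (SE 0.33, adjusted p = 0.0751), which passed with DESeq2's test (adjusted p = 0.0348), with the mitochondrial covariate (0.0428) and without replicate C (0.00216). The adjusted p was 0.715 without replicate A, and 0.558 without replicate B, where the log2 fold change was 0.90. With the block for the letters within each harvest the log2 fold change was 0.94 (adjusted p = 0.00534), below a 2-fold change. The values at days 15 and 21 were 0.30 and 0.57. After withdrawal the values read 0.45, 0.55 and 0.73 (adjusted p = 0.898, 0.733 and 0.528). At day 30 the controls had 4.57 to 5.61 CPM and the exposed cells 7.72 to 9.75 CPM, and the arms did not overlap. C1RL, a related protease gene, overlaps 28.4% of the coding bases of C1R on the same strand, and reads in that stretch cannot be assigned to either gene.

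C3 (chr19:6677715-6730573, GRCh37), on which all complement pathways converge, rose about 3-fold and stayed there for as long as IL-1β was present. At day 6 the controls had 713, 840 and 336 CPM and the exposed cells 2339, 2265 and 1084 CPM. Both C replicates were low, and the lowest exposed library was still above the highest control. The log2 fold change was 1.59 (SE 0.25, adjusted p = 9.39e-05), a 3.01-fold rise. At day 15 the controls had 414, 410 and 548 CPM against 1199, 1190 and 1504 CPM (log2 fold change 1.50, SE 0.25, adjusted p = 0.000132), and at day 21 they had 385, 366 and 414 CPM against 1080, 1115 and 1495 CPM (1.66, SE 0.25, adjusted p = 3.41e-05). No library of 1 arm overlapped the other at any of these times. The adjusted p was 0.074 at day 6 and 0.055 at day 15 when replicate A was left out of every group, with log2 fold changes of 1.53 and 1.51. Leaving out the 11 high-mitochondrial libraries gave 1.88, 1.39 and 1.75 at the 3 times, all with an adjusted p under 0.05.

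Once IL-1β was removed, C3 came down close to the control level. At day 6 after withdrawal the exposed cells had 529, 595 and 692 CPM and the controls 596, 471 and 421 CPM, which overlapped (log2 fold change 0.29, SE 0.24, adjusted p = 0.948). At day 15 they had 656 to 675 CPM and the controls 496 to 618 CPM, without overlap (0.29, SE 0.25, adjusted p = 0.848). At day 30 they had 597, 657 and 620 CPM and the controls 483, 417 and 406 CPM, without overlap (0.52, SE 0.25, adjusted p = 0.569). C3 thus kept 17.3%, 17.5% and 31.3% of its day 21 log2 fold change at days 6, 15 and 30. The response at day 6 after withdrawal was lower than at day 21 by 1.38 on the log2 scale (SE 0.35, adjusted p = 0.170), which missed the threshold and passed it with DESeq2's test (0.0427) and without replicate C (0.0068).

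CFB (chr6:31913427-31919863, GRCh37), which encodes the protease precursor of the alternative pathway, went the same way as C3 at far lower counts. At day 6 the controls had 0.588, 0.261 and 0.177 CPM, from 9, 3 and 3 reads, and the exposed cells 2.00, 2.19 and 1.02 CPM, from 29, 30 and 21 reads. The log2 fold change was 2.29 (SE 0.51, adjusted p = 0.00501). It was 2.13 (SE 0.61, adjusted p = 0.0302) at day 15 and 1.64 (SE 0.51, adjusted p = 0.0518) at day 21, and the arms did not overlap at any of the 3 times. These calls rest on few reads, 283 in all 36 libraries. The day 6 adjusted p was 0.154, 0.0665 and 0.0531 without replicates A, B and C, and at day 15 it was 0.475 without A and 0.133 without C. The day 21 value passed once the high-mitochondrial libraries were left out (1.93, adjusted p = 0.00456), and with the replicate letters as a block it was 1.65 (adjusted p = 0.0435), or 1.63 (0.0427) with a block for the letters within each harvest. Leaving out 1 replicate gave 1.51 to 1.72 at day 21 (adjusted p = 0.0902 to 0.569), so no such fit passed. After withdrawal CFB had 1 to 6 reads per library in controls and 0 to 8 in exposed cells, with log2 fold changes of -0.32 (SE 0.70), -0.08 (SE 0.61) and 0.98 (SE 0.66), and the first 2 change sign with the libraries used. Of the coding bases of CFB, 95.5% also belong to a read-through gene on the same strand (ENSG00000244255), which has 0 reads in all libraries. The overlap mode of the counting is not given in the sources used here. Under a mode that sets shared reads aside, the CFB level would be understated in both arms.

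**Figure D3:**
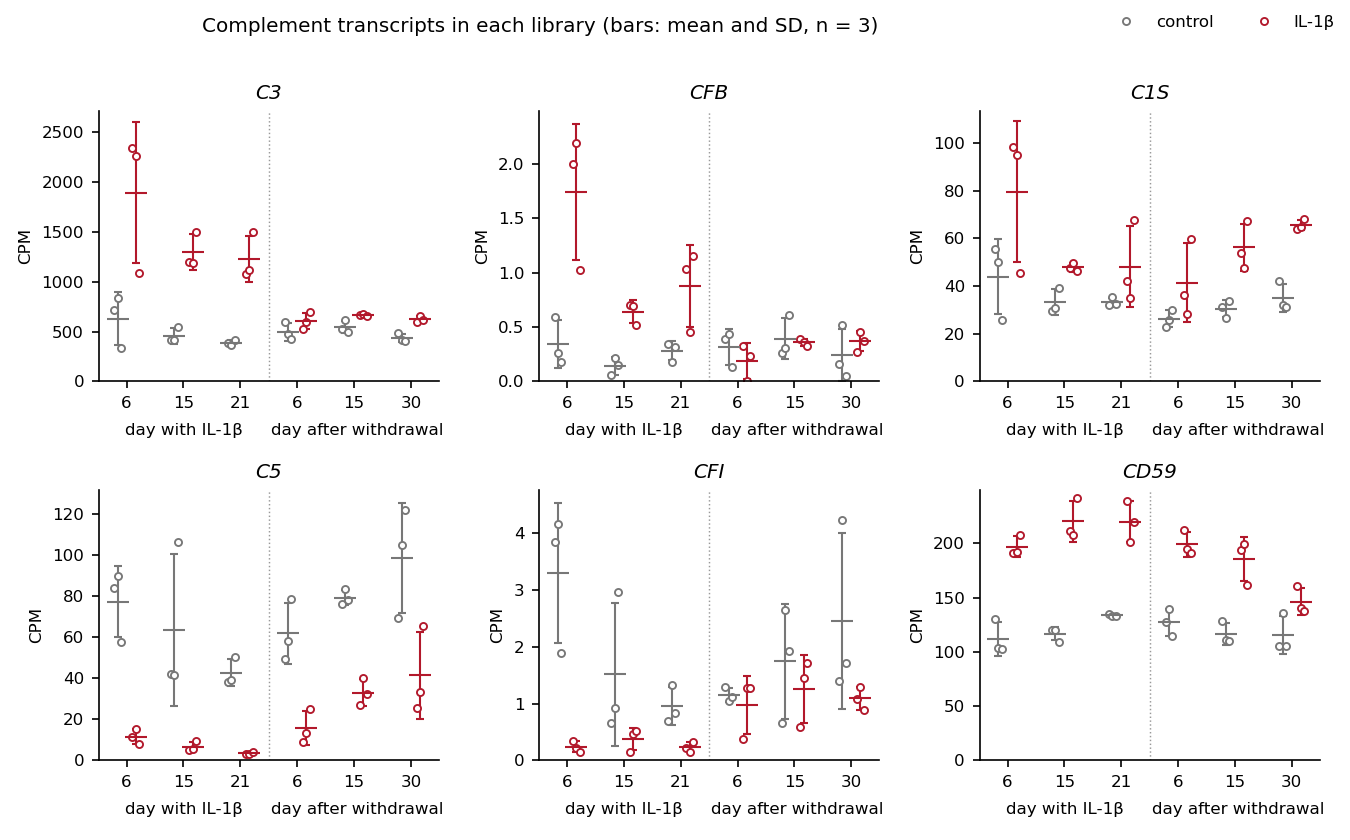
CPM of 6 genes in every library at the 6 time points, with control libraries in grey, IL-1β libraries in red and bars for the mean and SD of 3 replicates. C3 and CFB are highest until day 21, after which the C3 means stay somewhat above those of the controls without being called. C5 and CFI are low until day 21, with C5 still below control after withdrawal. The means of C1S and CD59 remain above those of the controls after day 21.

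C5 (chr9:123695265-123837473, GRCh37), whose cleavage releases the inflammatory peptide C5a and starts the membrane attack complex, fell at all 3 time points with IL-1β, under every alternative setting tried. At day 6 the controls had 84.1, 90.0 and 57.6 CPM and the exposed cells 11.3, 15.1 and 8.09 CPM. At day 15 the controls had 42.2, 41.7 and 107 CPM against 5.01, 5.69 and 9.21 CPM, and at day 21 they had 38.3, 39.3 and 50.4 CPM against 2.93, 2.99 and 4.06 CPM. The arms lay far apart at every one of these times. The log2 fold changes were -2.75 (SE 0.39, adjusted p = 2.25e-05), -3.28 (SE 0.41, adjusted p = 1.94e-06) and -3.67 (SE 0.42, adjusted p = 5.19e-07), or 6.73-fold, 9.70-fold and 12.7-fold lower. Over all alternative settings the adjusted p at these 3 times was at most 0.0116, 0.0129 and 0.00139. The change from day 6 to day 21, -0.92 (95% interval -2.01 to 0.18), did not pass the test (adjusted p = 1.00).

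C5 came back in part after IL-1β was withdrawn. Previously exposed cells had 9.07, 13.4 and 24.9 CPM at day 6 and the controls 49.4, 57.9 and 78.5 CPM, at day 15 they had 26.7, 39.9 and 32.4 CPM against 76.2, 83.3 and 78.3 CPM, and at day 30 they had 25.3, 33.2 and 65.5 CPM against 69.4, 105 and 122 CPM. The exposed cells were still below every control of the same time in all 3 cases, and at day 30 the highest exposed library, C, came close to the lowest control, A. The log2 fold change was -1.97 (SE 0.38, adjusted p = 0.00205) at day 6, -1.27 (SE 0.37, adjusted p = 0.0971) at day 15 and -1.25 (SE 0.37, adjusted p = 0.104) at day 30, which is 53.7%, 34.5% and 34.2% of the day 21 value. The day 6 call was lost without replicate A (adjusted p = 0.174) and without replicate B (0.0987). Leaving out the libraries of high mitochondrial share leaves 1 control at day 6, so that fit cannot judge the call. The day 15 and day 30 values passed without replicate C (-1.26, adjusted p = 0.0156, and -1.60, adjusted p = 0.0032) and with DESeq2's test (-1.28 at both, adjusted p = 0.0384 and 0.0357). They also passed with the replicate block (-1.28, adjusted p = 0.0191, and -1.30, adjusted p = 0.0172) and with the block within each harvest (-1.28, 0.000242, and -1.33, 0.000183). Neither passed without replicate A, without replicate B or with a separate fit of each harvest. Leaving out 1 replicate gave -1.42 to -1.18 at day 15, with an adjusted p up to 0.717, and -1.60 to -1.08 at day 30. With the high-mitochondrial libraries left out, the day 30 value did not pass.

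CFI (chr4:110652164-110723306, GRCh37), the protease that degrades C3b, was low in these cells and fell further with IL-1β. At day 6 the controls had 3.86, 4.18 and 1.89 CPM, from 59, 48 and 32 reads, and the exposed cells 0.345, 0.219 and 0.146 CPM, from 5, 3 and 3 reads. The log2 fold change was -3.80 (SE 0.66, adjusted p = 0.000298), and its adjusted p was at most 0.0251 over all alternative settings. At day 15 the controls had 0.651, 0.921 and 2.97 CPM against 0.150, 0.465 and 0.517 CPM. The control C replicate stood above the other two. The log2 fold change of -2.10 (SE 0.64, adjusted p = 0.0457) was not called without replicate A, B or C (adjusted p = 0.171, 0.073 and 0.838), and it was -1.36 without C. At day 21 it was -1.91 (SE 0.67, adjusted p = 0.103). With the replicate block the day 21 adjusted p was 0.0636, and with the block within each harvest it was 0.0138 (-1.86). Leaving out 1 replicate gave -2.36 to -1.43 at day 21 (adjusted p = 0.199 to 0.644). The control level itself went from 3.31 ± 1.24 CPM at day 6 to 0.949 ± 0.336 CPM at day 21 (SD, n = 3). After withdrawal CFI was at 0.382 to 1.72 CPM in exposed cells and 0.649 to 4.25 CPM in controls, with log2 fold changes of -0.27, -0.41 and -1.09 (adjusted p = 1.00, 0.888 and 0.619), 7.11%, 10.8% and 28.6% of the day 6 value.

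Of the 3 surface regulators that protect cells from their own complement, CD59 (chr11:33724556-33758025, GRCh37), which blocks the last step of pore assembly, rose with IL-1β. The controls had 102 to 139 CPM over all 6 times. The exposed cells had 191, 192 and 208 CPM at day 6, 211, 208 and 242 CPM at day 15 and 239, 201 and 220 CPM at day 21. All 9 libraries were above every control. The log2 fold changes were 0.82, 0.92 and 0.72 (SE 0.12 each, adjusted p = 4.46e-05, 5.92e-06 and 0.000162), or 1.76-fold, 1.89-fold and 1.65-fold, below the 2-fold limit. CD59 stayed up after withdrawal, with 213, 195 and 191 CPM at day 6 and 194, 200 and 162 CPM at day 15 (log2 fold changes 0.65 and 0.67, SE 0.12, adjusted p = 0.00145 and 0.00252). At day 30 it had 160, 140 and 138 CPM in exposed cells and 105, 136 and 106 CPM in controls (0.34, SE 0.12, adjusted p = 0.267). With 1 replicate left out, the adjusted p stayed under 0.05 at days 6 and 15 of exposure. It was 0.0777 at day 21 without replicate A, 0.309 and 0.054 at day 6 after withdrawal without A and C, and 0.274 and 0.256 at day 15 after withdrawal without A and B. CD59 kept 70.8%, 72.9% and 36.9% of its day 15 value. With the 11 high-mitochondrial libraries left out, 1 control remained at each of days 6 and 15 after withdrawal, so that fit cannot judge these calls. The log2 fold changes there were 0.83 and 0.48. The fall of the response from day 21 to day 30 after withdrawal, -0.38 (95% interval -0.73 to -0.03), did not pass after adjustment (adjusted p = 0.738).

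CD55 (chr1:207494864-207560149, GRCh37), the regulator that dissociates the C3 and C5 convertases, was not called at any time point, and its level differed with the mitochondrial share of the libraries. In the 12 controls of low mitochondrial share it had 43.7 to 62.5 CPM, and in the 6 of high share 81.3 to 142 CPM. The 13 exposed libraries of low share had 64.9 to 115 CPM, above all 12 of those controls, and the 5 of high share had 78.2 to 190 CPM. Its log2 fold change over all 36 libraries was 0.70, 0.99 and 0.40 with IL-1β present (SE 0.40 each, adjusted p = 0.579, 0.177 and 0.915) and 0.46, 0.21 and 0.14 after withdrawal. Without the 11 libraries it was 0.97 (adjusted p = 0.000604), 0.46 (0.0762) and 0.41 (0.120) during exposure. At days 6 and 15 after withdrawal, where that fit has too few controls for a p-value, it was 0.62 and 0.43. At day 30 it was 0.73 (0.0514). With the high share as a covariate it was 1.03 at day 6 of exposure (adjusted p = 0.00123) and 0.70 at day 6 after withdrawal (0.0433). The part of the mitochondrial share in these values was tested no further.

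CD46 (chr1:207925382-207968858, GRCh37), the cofactor that helps factor I cleave C3b, did not pass the test at any time point. The controls had 123 to 265 CPM and the exposed cells 99.2 to 221 CPM over all time points, and the arms overlapped at each of them. The lowest log2 fold change was -0.45 at day 21 (SE 0.20, adjusted p = 0.284), with 185, 165 and 205 CPM in controls and 141, 99.2 and 166 CPM in exposed cells. The 95% intervals of the 6 fold changes lay between -0.87 and 0.48, all within a 2-fold change in either direction. CD46 overlaps the noncoding gene MIR29B2CHG on the opposite strand over 13.2% of its coding bases.

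Whether a response differed between 2 time points was tested as the difference of the 2 log2 fold changes. From day 6 to day 21 of exposure 0 of the 9 genes differed (0 at an unadjusted p under 0.05 and 0 with DESeq2), as did 0.0104% of all genes. Between day 21 and day 6 after withdrawal 0 passed, though 3 (C3, C5 and CFB) had an unadjusted p under 0.05 and DESeq2 called 1 (C3). The share of all genes that passed was 0.141%. How many of all genes had an unadjusted p under 0.05 was not counted in any of these comparisons. Between day 21 and day 30 after withdrawal 1 passed, C5, and 0.73% of all genes did. Its response rose from -3.67 to -1.25, a difference of 2.41 (SE 0.54, 95% interval 1.31 to 3.51, adjusted p = 0.0224). The adjusted p of this difference was 0.503 without replicate A, 0.373 without replicate B and 0.0936 with the 11 high-mitochondrial libraries left out, where the differences were 2.43, 2.57 and 2.51. Between day 6 and day 30 after withdrawal 0 of the 9 differed (0 at an unadjusted p under 0.05 and 0 with DESeq2), against 0.00521% of all genes. Across the 6 control groups 0 of the 9 differed, with 1 (CFI) at an unadjusted p under 0.05 and 0 with DESeq2, and 0.00521% of all genes did. The control means of C5 nevertheless ranged from 42.6 ± 6.7 CPM at day 21 to 98.8 ± 26.8 CPM at day 30 after withdrawal (SD, n = 3), with an adjusted p of 0.981 over the 6 groups.

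The rest of the pathway was sparse in A549 cells. Of 45 other complement genes, 16 had enough reads to be tested, and 1 of them, CFD, passed both thresholds at 1 or more time points. CFD encodes factor D, the protease that cleaves factor B in the alternative pathway. At day 15 of exposure it fell from 38.4 ± 20.0 CPM in controls to 7.78 ± 0.57 CPM (SD, n = 3), a log2 fold change of -2.30 (SE 0.56, adjusted p = 0.00845), and at day 21 it was -1.77 (SE 0.55, adjusted p = 0.0508). In the classical pathway 4 of 7 were tested, led by C1RL at a mean of 34.1 CPM, and C1QA, C1QB and C1QC, which encode the recognition part of C1, had 0 reads in all libraries. C4A and C4B are near-identical copies between which reads cannot be assigned with certainty. In the lectin pathway 3 of 8 were tested, led by MASP2 at 1.36 CPM. Of the 6 genes of the terminal pathway, which follow C5 in pore assembly, 0 reached the count needed for a test, and C7 led them with 0.238 CPM. Among soluble regulators 5 of 13 were tested, led by clusterin (CLU) at 146 CPM. CLU, which encodes an inhibitor of pore assembly, was the 1 other gene of the 16 to pass the adjusted p, and did so after withdrawal at less than a 2-fold change. At day 6 after withdrawal it had 170 ± 27 CPM in controls and 86.1 ± 5.5 CPM in exposed cells (log2 fold change -0.98, SE 0.15, adjusted p = 0.000115), and at day 15 it had 176 ± 33 and 103 ± 20 CPM (-0.77, SE 0.15, adjusted p = 0.00342; SD, n = 3). SERPING1, the inhibitor of C1r and C1s, had 3 reads in all 36 libraries together. Among membrane regulators and receptors 3 of 9 were tested, led by the C5a receptor gene C5AR1 at 2.35 CPM, and the C3a receptor gene C3AR1 had 29 reads in total.

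For the 4 genes called at 2 or more time points, the most alike of the other tested genes were taken by Pearson's r of log2 CPM over the 36 libraries, which share the 2 arms and the 6 harvests. C3 was most like NRP2 (r = 0.94), SLC25A37 (0.93) and KYNU (0.93). C5 was most like ADGRG2 (0.99), ANXA4 (0.97) and MYO1E (0.97), of which ADGRG2, an adhesion receptor gene, had log2 fold changes of -2.27, -2.53 and -2.87 during exposure and -1.81, -1.28 and -1.16 after it. For CFB the closest were C3 itself (0.78), LTB (0.77) and ACO1 (0.77). For CFI they were ALDH1A1 (0.89), NCKAP5 (0.89) and the coagulation factor VII gene F7 (0.88). The correlations of C5 were thus the tightest, and those of CFB, the gene with the fewest reads, the loosest.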

How the data were processed

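RNA from 36 A549 samples was sequenced as single-end reads from a stranded mRNA kit. The authors aligned the reads to GRCh37 with TopHat2 and deposited HTSeq counts per Ensembl gene, 1 table per library, without normalization. The submitters' processing notes name bcl2fastq 2.17, TopHat2 2.0.14, Bowtie2 2.2.5 and HTSeq 0.6.1. The strand setting, the overlap mode and the annotation release are not given in the sources used here. Reads on no gene (8.48% to 18.6%) or ambiguous between genes (2.62% to 4.18%) were left out of library sizes.

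The depth was 9116032 to 23570026 counts per library. Genes were kept by edgeR's filterByExpr (19180 of the 39471 with any count), scaled by TMM and tested with edgeR's quasi-likelihood test in 1 model of the 12 groups (24 residual degrees of freedom), with Benjamini-Hochberg adjustment over all genes tested. CPM used the same scaling, and log2 CPM a prior count of 2. The tools were edgeR 4.0.16, limma 3.58.1 and DESeq2 1.42.0 in R 4.3.3, and pandas 2.3.3 and matplotlib 3.10.9 in Python 3.11.15. Symbols, positions and lengths came from GENCODE v44lift37, which matched 55665 of 63677 genes, and promoters from RefSeq.

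The 9 genes, the lists of other complement and marker genes, and the tests were chosen with earlier results of these data known. Named were all 9 genes, each other complement gene past both thresholds, the most abundant one of each list, and the 3 genes most alike to each gene called at 2 or more time points. Genes with 0 or very few reads were named after their values were seen. The model was tested on simulated counts. Alternatives covered scaling, filters, test, replicate block and samples. Leaving out the 11 libraries with over 10% mitochondrial counts was chosen after seeing the data. So was the covariate for a high mitochondrial share, which marks a library as in this set or not and does not use the share itself.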

Additional observations from a re-analysis of the deposited data

Results flagged for a closer look

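Between day 21 of exposure and day 30 after withdrawal the C5 response moved up by 2.41 on the log2 scale (edgeR, adjusted p = 0.0224), which was picked out because the difference between 2 time points itself passed the test. Both responses are of exposed cells against the control of the same harvest, and the mean level rose from 3.33 CPM to 41.3 CPM in exposed cells and from 42.6 CPM to 98.8 CPM in controls. The exposed library of each of the 3 letters was below its control at both times.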

How the results depend on the processing

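Few reads limit CFB and CFI most, with 0 to 30 and 2 to 60 reads per library. Of the single-gene values under other settings, 695 kept their direction and their side of the threshold, 29 came past it, 19 no longer passed it and 13 changed sign.

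Requiring 10 counts in every library leaves CFB and CFI untested and gives 2 genes called at day 6 and 2 at day 15 of exposure (of all 13054 genes tested, 304 and 443). The separate fit of each harvest gives 2 at day 15 of exposure (424 of 17275 genes) and 0 at day 6 after withdrawal (1 of 16637 genes). The adjusted p alone gives 2 and 1 at days 6 and 15 after withdrawal (502 and 261 of 19180 genes). DESeq2's test gives 1 at day 15 and 1 at day 30 after withdrawal (215 and 218 of 19180 genes), and 1 for the difference between day 21 and day 6 after withdrawal (56 genes). A high mitochondrial share as a covariate gives 4 at day 21 and 1 at day 30 after withdrawal (1004 and 314 of 19180 genes). With the high-mitochondrial libraries left out, 0 differ between day 21 and day 30 after withdrawal (236 of 20248 genes). Leaving out 1 replicate gave 2 to 4, 1 to 5 and 2 to 2 called genes during exposure (176 to 405, 284 to 890 and 299 to 634 of 18896 to 19474 genes) and 0 to 1 at each time after withdrawal (29 to 290, 15 to 154 and 6 to 165 genes). It gave 0 to 1 and 0 to 2 differing between day 21 and days 6 and 30 after withdrawal (3 to 35 and 7 to 116 genes), and 0 to 2 between control groups (0 to 55 genes). The cause was not tested.

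Libraries of the same replicate letter and harvest deviated together by r over 0.1 in 14 of 18 pairs (mean 0.28, lowest -0.34, highest 0.72). The main model has no block for the letters, so variation that they share stays in its estimate of the spread. All 3 pairs were over 0.1 at day 21 (0.23, 0.20 and 0.26) and at day 30 after withdrawal (0.37, 0.46 and 0.31). With the replicate block, 3 genes (C3, C5 and CFB) were called at day 21, and 1 gene (C5) at day 15 and 1 at day 30 after withdrawal (889, 243 and 218 of 19180 genes). With the replicate block within each harvest there were 4 at day 21, 1 and 1 at days 15 and 30 after withdrawal (951, 287 and 263 genes), and 2 (C3 and C5) that differed between day 21 and each of days 6 and 30 after withdrawal (66 and 324 genes).

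Values that changed sign were all uncalled and after withdrawal. Over the 3 fits that leave out 1 replicate, CFB ranged from -0.94 to 0.44, CFI from -0.63 to 0.24 and CD46 from -0.26 to 0.01 at day 6. At day 15, CFB ranged from -0.43 to 0.41, CD46 from -0.09 to 0.20 and CD55 from -0.03 to 0.44. At day 30, CD55 ranged from -0.11 to 0.72. Total counts turned CFB at day 15 to 0.11. With the high-mitochondrial libraries left out, CFB went to 1.10 at day 6 and 0.43 at day 15, and at day 15 CFI went to 0.89 and CD46 to -0.20.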
